A study of Rattus norvegicus with 20 samples.

Results

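Gene expression in mesenteric arteries of rats given raloxifene was compared with that of rats given vehicle, over 3 raloxifene and 4 vehicle arrays of the 20 arrays in the series. The arrays were taken by their sample titles, and all probes with a single gene symbol were considered: 16865 of 35129 probes on the array carry 1 symbol, and 13324 of those were among the 24562 probes bright enough to be tested. Raloxifene array 3 stood apart from the other 19 arrays, so genes on which raloxifene arrays 1 and 2 agreed are given apart from those carried by array 3 alone. All rats were female Sprague Dawley, ovariectomised at 4 weeks of age, left for 2 weeks and then gavaged each day for 3 weeks, which makes them 9 weeks old at tissue collection. Vehicle rats received 20% 2-hydroxypropyl-β-cyclodextrin and raloxifene rats 3 mg/kg of raloxifene. A tamoxifen group (4 arrays, also 3 mg/kg) is used below as the matched compound, and 9 arrays from rats given ethinyl estradiol, estradiol benzoate or equilin (3 arrays each, 0.15 mg/kg) enter the fit for its estimate of spread. Each array holds the RNA of 1 rat, from arteries described as dissected free of veins and fat.

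Raloxifene is a selective estrogen receptor modulator (SERM), a drug that binds estrogen receptors and acts as an agonist or an antagonist depending on the tissue. It is used against postmenopausal bone loss, where it acts like an estrogen, and it opposes estrogen in the breast. In arteries, estrogen receptors are found in endothelial and smooth muscle cells, where their ligands influence vascular tone, inflammation and the matrix of the vessel wall.

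Values are log2 intensities relative to the median of their array, so that 0 is the array's median probe and a difference of 1 is a factor of 2. Of the smooth muscle markers that check the tissue label, Myh11, the smooth muscle myosin heavy chain, was bright, between 7.64 and 8.55 in the 4 vehicle arrays on its brighter probe. Acta2, smooth muscle actin, had a dim probe with values from -1.35 to 0.14 in the vehicle arrays. Adipocyte markers were bright too: the mean over 15 of them was 3.98 to 4.41 in the vehicle arrays, against 3.97 to 3.99 over 16 endothelial markers. Whether fat remained on the arteries was not tested. The 20 arrays had deposited medians from 1.0007 to 1.0612. A gap between 1.015 and 1.0408 parts vehicle array 1 and the 9 estrogen arrays (set A) from the other vehicle arrays and all SERM arrays (set B), so every comparison with vehicle array 1 is also one between sets.

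Over all tested probes, raloxifene array 3 correlated with the other arrays at a mean r of 0.841, against 0.919 to 0.959 for each of the others. The SD of its probes' deviations from their mean over the other 19 arrays was 1.07, against 0.29 to 0.64 for the others, whose deviations were taken from the same means. Its deviations followed the probe number, which consists of a block part (1 to 328) and a within-block part (1 to 112). No source used here says whether that number is a place on the slide. In raloxifene array 3 the median deviation was 0.42 for within-block numbers 1 to 14, -0.69 for 43 to 56 and 0.58 for 99 to 112. No other vehicle, tamoxifen or raloxifene array showed such a course: the medians of raloxifene array 1 lay between 0.03 and 0.11 and those of array 2 between -0.05 and 0.10. Along the blocks it was the vehicle arrays that parted. In the first 50 blocks, which hold 3572 tested probes (14.5%), vehicle arrays 1 and 2 had medians of -0.28 and -0.27 and vehicle arrays 3 and 4 had 0.34 and 0.42. Raloxifene arrays 1, 2 and 3 stood at 0.39, 0.28 and 0.60 there. Results are therefore also given after the median deviation (here from the mean over all 20 arrays) of each cell of 20 blocks by 14 within-block numbers was subtracted from each array ("position-adjusted"), a step chosen after these data were seen.

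**Figure D1:**
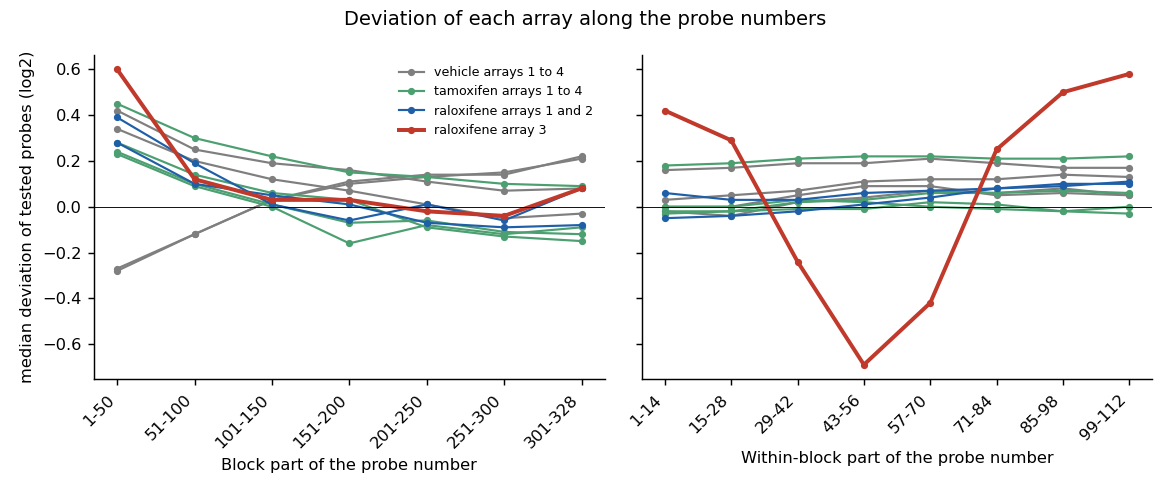
Median deviation of tested probes from their mean over the 19 arrays other than raloxifene array 3 (log2) in bins of the block part (left) and the within-block part (right) of the probe number, 1 line per vehicle, raloxifene and tamoxifen array. Raloxifene array 3 (red) runs from 0.42 to -0.69 and back to 0.58 along the within-block numbers, while the other arrays shown stay between -0.05 and 0.22 there, and vehicle arrays 1 and 2 are the only lines below 0 in blocks 1 to 50.

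In raloxifene arrays 1 and 2, 11 genes were lower than in vehicle by limma's test and none was higher. They were Armc5, Psmb8, Ncf4, Pfkl, Cpz, Gaa, Nup210, Sox4, Ciita, Mycbp2 and Hilpda, at log2 differences from -2.06 to -0.89. Among them are a ubiquitin ligase and a ligase adaptor (Mycbp2, Armc5), genes of antigen processing and phagocytes (Psmb8, Ciita, Ncf4) and enzymes of glycogen and sugar breakdown (Gaa, Pfkl). In all, 14 of 24562 probes (0.057%) passed at limma's adjusted p under 0.05, 1 higher (0.00407%) and 13 lower (0.0529%), and 11 of the 13 carry a gene symbol. At an unadjusted p under 0.05 there were 3104 probes (12.6%). In each of the 11 genes, which were chosen by these values, both arrays lay below every vehicle array. Array 3 lay below every vehicle array in 9 of the 11, and the exceptions were Psmb8 and Pfkl. Over all tested probes, all 3 raloxifene arrays lay below every vehicle array in 2656 (10.8%). Array 3 lay below every vehicle array and at least 1 below their mean in 5192 (21.1%). As the tissue was measured in bulk, fewer cells of a type and less RNA per cell cannot be told apart in any of these results. The count depends on single arrays: it was 1 without raloxifene array 1, 236 without raloxifene array 2, 5 without vehicle array 1 and 210 without vehicle array 4, and none of the 11 genes passed without raloxifene array 1. With quantile normalisation 11 probes passed, 3 higher and 8 lower.

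**Figure D2:**
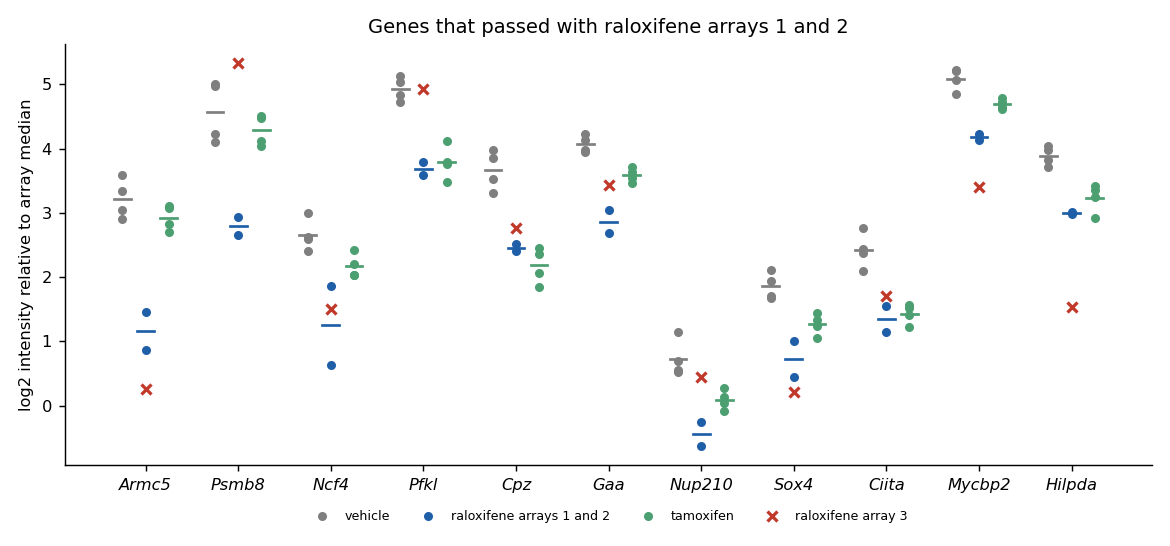
Log2 intensity relative to the array median (y axis) of the 11 genes that passed with raloxifene arrays 1 and 2, for the 4 vehicle arrays (grey), raloxifene arrays 1 and 2 (blue), raloxifene array 3 (red cross) and the 4 tamoxifen arrays (green), with bars at group means. Both blue points lie below all grey points for each gene, and the red cross lies inside or above the grey range for Psmb8 and Pfkl.

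Armc5 had the largest difference among the genes that passed. It encodes an armadillo-repeat protein that serves as a substrate adaptor for a ubiquitin ligase, and its loss causes nodular overgrowth of the adrenal cortex. The 4 vehicle arrays read 2.90, 3.05, 3.34 and 3.59, and raloxifene arrays 1, 2 and 3 read 0.87, 1.46 and 0.26. All 3 raloxifene arrays were lower than every vehicle array by more than the vehicle arrays differed among themselves. Without array 3, the difference was -2.06 ± 0.30 (SE, limma, adjusted p = 0.0188). With all arrays it was -2.36 ± 0.30 (adjusted p = 0.00643), and after position adjustment without array 3 it was -1.85 (adjusted p = 0.00542). The other Armc5 probe read 3.65, 3.67, 3.96 and 4.16 in vehicle and 3.33, 3.39 and 2.40 in raloxifene. That probe's raloxifene arrays were also all below vehicle, but its smaller difference of -0.50 ± 0.16 did not pass (limma, adjusted p = 0.214; 0.0514 with all arrays).

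Gaa, the acid alpha-glucosidase that breaks down glycogen in lysosomes, had the smallest adjusted p. Its vehicle arrays read 4.22, 3.98, 4.13 and 3.94, and raloxifene arrays read 2.69, 3.04 and 3.44. The groups did not overlap, and the difference without array 3 was -1.20 ± 0.15 (limma, adjusted p = 0.0104). Pfkl, the liver-type phosphofructokinase of glycolysis, read 5.13, 4.84, 5.04 and 4.72 in vehicle and 3.59, 3.79 and 4.93 in raloxifene. Array 3 thus fell within the vehicle range for Pfkl, and its difference of -1.24 ± 0.18 passed without array 3 (limma, adjusted p = 0.0188) but not with all arrays (adjusted p = 0.0707). The other Pfkl probe differed by -0.19 (adjusted p = 0.662). Hilpda, a protein of lipid droplets that restrains their breakdown, read 3.83, 4.04, 3.71 and 3.98 in vehicle and 3.01, 2.99 and 1.54 in raloxifene. Its difference was -0.89 ± 0.15 without array 3 (limma, adjusted p = 0.0387), and array 3 lay further down than the other raloxifene arrays.

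Psmb8, Ciita and Ncf4 belong to the immune functions of leukocytes and interferon-treated cells. Psmb8, a catalytic subunit of the immunoproteasome that cuts peptides for display to T cells, read 5.00, 4.22, 4.98 and 4.10 in vehicle. Raloxifene arrays 1 and 2 read 2.94 and 2.66, whereas array 3 read 5.33, above all vehicle arrays. Without array 3 the difference was -1.78 ± 0.28 (limma, adjusted p = 0.0250), and with all arrays it was -0.93 (adjusted p = 0.186). Ciita, the transactivator that switches on MHC class II genes, read 2.38, 2.44, 2.76 and 2.10 in vehicle and 1.55, 1.15 and 1.71 in raloxifene. It differed by -1.07 ± 0.18 (adjusted p = 0.0387), and its second, dim probe by 0.13 (adjusted p = 0.919). Ncf4, a cytosolic subunit of the phagocyte NADPH oxidase, read 2.62, 2.41, 3.00 and 2.60 in vehicle and 0.63, 1.87 and 1.5 in raloxifene, a difference of -1.41 ± 0.25 (adjusted p = 0.0455). Tap2, part of the transporter that carries peptides to MHC class I molecules, read 1.78, 1.01, 2.38 and 1.83 in vehicle and 0.14, 0.43 and 1.02 in raloxifene. Arrays 1 and 2 of Tap2 were below vehicle and array 3 was just inside its range; the difference of -1.46 did not pass without array 3 (adjusted p = 0.0613) and passed with all arrays at -1.22 (adjusted p = 0.0386). A second, dim Tap2 probe differed by 1.06 the other way (adjusted p = 0.54).

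Leukocyte markers stood beside these genes as follows. Of 20 tested macrophage and dendritic cell markers, 14 (70%) were lower in both raloxifene arrays 1 and 2 and 3 (15%) were higher in both. Of all 10191 genes tested, 45.2% were lower and 33.1% higher in both. The markers had a median difference of -0.33, and -0.26 after position adjustment, against -0.06 and -0.02 over all genes. Their summed deposited intensity was 655 to 956 in vehicle and 644, 536 and 651 in raloxifene arrays 1, 2 and 3, and none of the 20 was at 0 on any array. For 10 T and B cell markers the sum was 11.4 to 32.9 in vehicle and 13.1, 14.1 and 20.4 in raloxifene. No marker of either list passed without array 3. With all arrays C1qc, a subunit of complement C1q, was at -1.51 (adjusted p = 0.0366) and Cd74, the chaperone of MHC class II, at -1.12 (limma, adjusted p = 0.0388). Cd163, a scavenger receptor of tissue macrophages, went the other way: it stood 0.85, 0.65 and 1.5 above the vehicle mean in arrays 1, 2 and 3 (limma, adjusted p = 0.0388). The part of leukocyte number in the lower Psmb8, Ciita and Ncf4 was not tested.

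Mycbp2, Sox4 and Nup210 act in protein turnover, transcription and the nuclear pore. Mycbp2, a large ubiquitin ligase, read 5.22, 5.21, 5.06 and 4.85 in vehicle and 4.13, 4.23 and 3.41 in raloxifene. Its 3 raloxifene arrays lay below all vehicle arrays, and the difference without array 3 was -0.91 ± 0.14 (limma, adjusted p = 0.0188). The other 2 Mycbp2 probes differed by 0.16 and 0.29 and did not pass. Sox4, a transcription factor of progenitor cells, read 1.71, 1.94, 2.11 and 1.67 in vehicle and 0.44, 1.0 and 0.21 in raloxifene (difference -1.13 ± 0.19, limma, adjusted p = 0.0337). Nup210, a membrane protein of the nuclear pore, had a pair of probes that went the same way. The probe that passed read 0.53, 0.69, 1.15 and 0.55 in vehicle and -0.63, -0.26 and 0.45 in raloxifene, a difference of -1.17 ± 0.17 (adjusted p = 0.0188). The other probe differed by -1.16 (adjusted p = 0.0607), and in array 3 both were near vehicle, at -0.28 and -0.05 from the vehicle mean.

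Of these 11 genes, 5 also passed after position adjustment: Armc5, Gaa, Cpz, Mycbp2 and Psmb8. Position adjustment called 23 probes without array 3 (0.0936%), 2 higher (0.00814%) and 21 lower (0.0855%), and 7 probes were called both ways. With the array set as a block, 3 of the 11 passed: Armc5, Gaa and Nup210, each at an adjusted p of 0.0288. With both steps together, Armc5, Cpz and Gaa passed, at adjusted p values of 0.00847, 0.0098 and 0.0147 (limma). When the fit held only the raloxifene and vehicle arrays, none of the 11 passed and the adjusted p values ran from 0.18 to 0.36.

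Promoter sequences of the genes called both ways show what lies at their starts. For 4 of the 5 (Armc5, Gaa, Mycbp2, Psmb8) RefSeq's GRCr8 table gave the 250 bases before the start, printed 5′ to 3′ on the gene's strand with motif matches in capitals. Cpz was not matched. They lie at chr1:192250330-192250579 (Armc5, + strand), chr10:105028105-105028354 (Gaa, + strand), chr15:86590127-86590376 (Mycbp2, − strand) and chr20:4657032-4657281 (Psmb8, − strand).
Armc5: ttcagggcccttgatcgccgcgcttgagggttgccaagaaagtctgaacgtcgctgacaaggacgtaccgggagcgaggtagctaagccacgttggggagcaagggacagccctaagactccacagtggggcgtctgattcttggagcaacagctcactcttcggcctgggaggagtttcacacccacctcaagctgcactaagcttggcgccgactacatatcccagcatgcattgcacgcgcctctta
Gaa: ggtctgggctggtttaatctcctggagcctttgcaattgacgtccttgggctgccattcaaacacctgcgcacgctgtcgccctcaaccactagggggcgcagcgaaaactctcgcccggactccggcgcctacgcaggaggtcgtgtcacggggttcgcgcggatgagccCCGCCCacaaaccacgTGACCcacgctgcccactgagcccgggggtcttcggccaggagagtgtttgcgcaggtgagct
Mycbp2: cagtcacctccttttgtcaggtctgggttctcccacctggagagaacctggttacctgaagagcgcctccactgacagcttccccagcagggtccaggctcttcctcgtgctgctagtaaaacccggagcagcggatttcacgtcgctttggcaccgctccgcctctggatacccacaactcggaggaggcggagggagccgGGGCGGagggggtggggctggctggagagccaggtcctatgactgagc
Psmb8: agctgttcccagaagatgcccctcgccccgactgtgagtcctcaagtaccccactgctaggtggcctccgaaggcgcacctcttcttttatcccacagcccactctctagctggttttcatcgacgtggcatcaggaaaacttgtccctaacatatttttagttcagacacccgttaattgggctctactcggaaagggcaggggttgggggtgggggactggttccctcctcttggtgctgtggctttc
The motifs searched on both strands were the estrogen response element GGTCANNNTGACC, its half-site GGTCA, the AP-1 site TGANTCA and the Sp1 site GGGCGG, the last pair being sites through which estrogen receptors can act without binding DNA themselves. A match to the full element also counts as a half-site. Gaa held 1 half-site and 1 Sp1 site, and Mycbp2 held 1 Sp1 site. Armc5 and Psmb8 held none of the 4 motifs in this window. Over all 33469 promoters in the table, 0.0239% hold the full element, 35.4% the half-site, 6.34% the AP-1 site and 30.5% the Sp1 site. These matches describe letters, not binding.

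Apart from the test, agreement was counted by size: a probe agrees where raloxifene arrays 1 and 2 are both at least 1 (log2) from the vehicle mean on the same side and both outside the vehicle range. This held for 59 probes on the higher side (0.24% of those tested) and 51 on the lower (0.208%). Of these, 40 higher probes (39 genes) and 22 lower probes (22 genes) carry a symbol. Array 3 met the same limits for 43 of the higher (0.175% of probes tested) and 27 of the lower (0.11%). Just inside the limit were Jakmip1, Rftn1 and Zfp667, with smaller differences of 1, 1.017 and 1.021, and just outside were Hba-a3, Xpnpep2 and Sh3yl1, at 0.999, 0.998 and 0.995 in size. Of the 59 higher probes, 34 (57.6%) lie in the first 50 blocks, as do 2 of the 51 lower probes (3.92%), against 14.5% of tested probes. Position adjustment left 45 higher and 31 lower probes, of which 32 and 27 were also in the unadjusted classes.

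**Figure D3:**
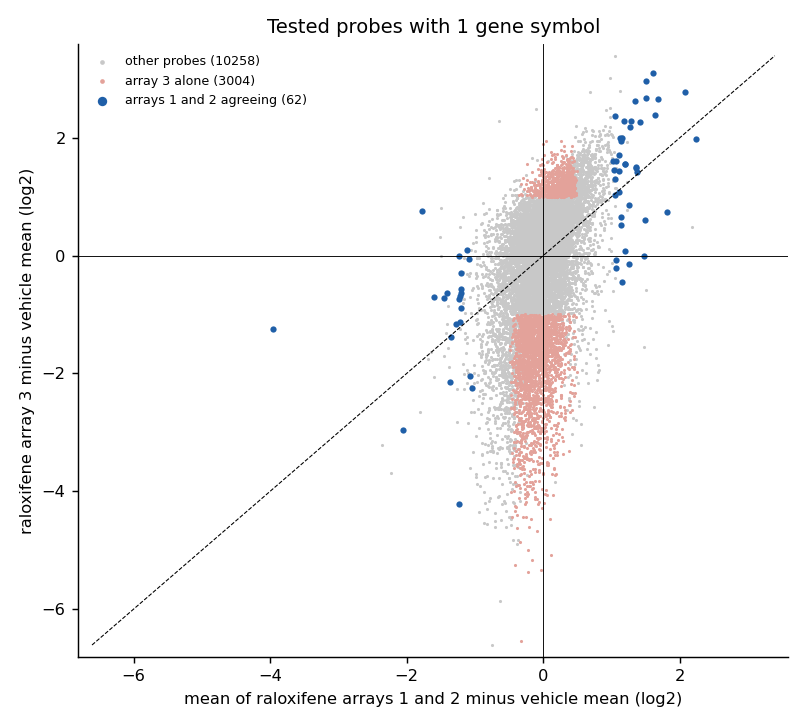
Difference of raloxifene array 3 from the vehicle mean (y axis, log2) against the mean difference of raloxifene arrays 1 and 2 (x axis, log2) for 13324 tested probes with 1 symbol. The 62 agreeing probes (blue) lie beyond 1 on the x axis, the 3004 probes carried by array 3 alone (pink) form a vertical band, and the dashed line marks equal differences.

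The remaining agreeing genes on the lower side had differences in arrays 1 and 2 that did not pass. Dtx2, a ubiquitin ligase of the Notch pathway, read 2.24, 2.29, 2.48 and 2.30 in vehicle and 1.30, 1.16 and 2.26 in raloxifene. Array 3 of Dtx2 was inside the vehicle range, and its difference of -1.09 ± 0.19 missed the threshold (limma, adjusted p = 0.0533) and passed after position adjustment (-0.99, adjusted p = 0.0271). Psd4, an exchange factor for ARF GTPases, read -0.40, -0.25, 0.10 and -0.66 in vehicle and -1.74, -1.42 and -1.46 in raloxifene. All raloxifene arrays lay below vehicle (-1.28 ± 0.27, limma, adjusted p = 0.0768, and -1.24 with all arrays, adjusted p = 0.0299). After position adjustment array 3 of Psd4 stood at 0.02 from the vehicle mean. The difference with all arrays was then -0.72 and did not pass (limma, adjusted p = 0.0973). Others were picked out after their values were seen. Ccl5, a chemokine of T cells and platelets, read 1.68, 2.57, 3.09 and 1.24 in vehicle and 0.93, 0.66 and 0.76 in raloxifene (-1.35, adjusted p = 0.134; -1.37 with all arrays, adjusted p = 0.0386). Nfix, a nuclear factor I transcription factor, read 5.29, 4.78, 4.77 and 3.81 in vehicle and 3.51, 3.37 and 3.53 in raloxifene (-1.22, adjusted p = 0.143; -1.19 with all arrays, adjusted p = 0.045). In both, the vehicle arrays spread over more than the raloxifene arrays did. Mest, an imprinted gene, and Itga1, a collagen-binding integrin, differed by -1.24 and -1.41 and passed in neither fit.

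The higher side had no gene that passed without array 3. The 9 given here by their p were Drg1, Arsk, Hsd17b2, Or8g23, Rassf3, Pcyox1l, Marveld1, Wdr44 and Baz2b, with differences from 1.05 to 1.51 and adjusted p values from 0.0607 to 0.106 (limma). Hsd17b2, which oxidises estradiol to the weaker estrone, read -2.40, -1.55, -1.53 and -1.65 in vehicle and -0.68, -0.68 and -0.70 in raloxifene. Its 3 raloxifene arrays agreed closely and lay above all vehicle arrays, and the difference was 1.10 ± 0.22 without array 3 (adjusted p = 0.0613) and 1.10 with all arrays (adjusted p = 0.0221). Drg1, a GTPase that associates with ribosomes, read 1.71, 2.02, 1.97 and 2.31 in vehicle and 3.06, 3.08 and 3.61 in raloxifene, also without overlap (1.06 ± 0.20, adjusted p = 0.0607).

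Arsk, a lysosomal sulfatase, was dim: its vehicle arrays read -2.06, -1.65, -2.48 and -2.33 and its raloxifene arrays -0.81, -0.89 and 0.16. The difference of Arsk was 1.28 ± 0.24 without array 3 (adjusted p = 0.0607) and 1.62 with all arrays (adjusted p = 0.0164), while its other, brighter probe differed by 0.36 and 0.21 in these fits and did not pass. Rassf3, a member of the Ras-association family, read 1.60, 1.95, 2.23 and 2.92 in vehicle and 3.66, 3.71 and 5.13 in raloxifene. Its other probe, at a vehicle mean of 5.69, differed by 0.16 (adjusted p = 0.826). Or8g23, an olfactory receptor gene, was the only one of the 9 in which array 3, at -2.10, fell within the vehicle range of -2.40 to -1.43. Of the 9 genes 6 lie in the first 50 blocks, where vehicle arrays 1 and 2 were low as a whole. After position adjustment their differences ran from 0.85 to 1.37, and none passed (adjusted p values from 0.0604 to 0.216).

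The other named genes of the higher side were dim. Pcyox1l, a relative of a prenylcysteine oxidase, read -0.55, -0.06, -1.25 and -0.24 in vehicle and 0.62, 0.72 and 1.02 in raloxifene (1.2 ± 0.27, limma, adjusted p = 0.0895). Baz2b, a chromatin reader, read -0.65, -0.27, -0.02 and 0.26 in vehicle and 0.99, 1.2 and 2.0 in raloxifene (1.27 ± 0.30, adjusted p = 0.106). Wdr44, which acts in vesicle recycling, differed by 1.18 ± 0.27 (adjusted p = 0.0948). In these 3 genes all raloxifene arrays lay above all vehicle arrays. Marveld1 read -1.40, -1.04, -1.18 and -1.16 in vehicle and -0.17, -0.13 and 0.11 in raloxifene (1.05 ± 0.24, adjusted p = 0.0895), while its other probe, brighter by far, read 5.70 to 6.23 in vehicle and differed by -0.18.

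After position adjustment, 2 named genes passed on the higher side that had not passed before, both named here after their values were seen. Npy1r, the receptor through which neuropeptide Y constricts arteries, read 1.39, 1.71, 1.38 and 1.53 in vehicle and 2.33, 2.42 and 3.63 in raloxifene. On this probe the raloxifene arrays lay above all vehicle arrays; the difference without array 3 was 0.88 before adjustment (limma, adjusted p = 0.202) and 0.94 after it (adjusted p = 0.045). A brighter Npy1r probe read 3.99, 3.84, 4.95 and 5.68 in vehicle and 4.94, 5.44 and 4.87 in raloxifene, inside the vehicle range, and did not pass (0.57 before and 0.35 after adjustment, adjusted p = 0.565 and 0.644). Rab35, a GTPase of endosome recycling, read -0.09, -0.04, -0.17 and -0.05 in vehicle and 0.56, 0.56 and 0.62 in raloxifene. Its difference was 0.65 before (adjusted p = 0.0978) and 0.79 after adjustment (adjusted p = 0.045), and it was 0.67 with all arrays (adjusted p = 0.0333). The brighter Rab35 probe went the other way, at -0.43 before and -0.34 after adjustment (adjusted p = 0.374 and 0.256).

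Extracellular matrix genes, which form the wall's collagen and elastic scaffold, were lower as a group. Of 45 tested members, 34 were lower in both raloxifene arrays 1 and 2 and 6 were higher in both (75.6% and 13.3%), against 45.2% and 33.1% of all 10191 genes tested. The median difference was -0.34, against -0.06 over all genes, and -0.30 after position adjustment. No member passed without array 3, and 3 of the 45 fell with all arrays, beside 159 of all 10191 genes. Col1a1, a chain of the main fibrillar collagen, read 6.59, 6.47, 5.93 and 5.91 in vehicle and 4.99, 4.73 and 4.08 in raloxifene. Its groups did not overlap; the difference was -1.37 ± 0.25 without array 3 (limma, adjusted p = 0.0607), -1.18 after position adjustment (adjusted p = 0.0271) and -1.62 with all arrays (adjusted p = 0.0164). The second Col1a1 probe gave -1.06 without array 3 (adjusted p = 0.0613), -0.99 after position adjustment (adjusted p = 0.0181) and -1.03 with all arrays (adjusted p = 0.027). Postn, a matricellular protein of remodelling vessels, and Eln, the elastic fibre protein, were the other members that passed with all arrays (adjusted p = 0.0318 and 0.0388). Arrays 1, 2 and 3 stood at -0.71, -0.90 and -1.58 for Postn and at -0.66, -0.63 and -1.41 for Eln. Of the 12 collagen genes tested, 10 were lower in both arrays 1 and 2.

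Cpz, a secreted carboxypeptidase with a Wnt-binding domain, was not on the matrix list and was lower in all 3 arrays. Its vehicle arrays read 3.53, 3.31, 3.85 and 3.98 and its raloxifene arrays 2.41, 2.51 and 2.77, a difference of -1.20 ± 0.19 (limma, adjusted p = 0.0276). Sfrp4, a secreted Wnt antagonist, read 0.74, 0.62, 0.66 and 0.57 in vehicle and -0.75, -0.17 and -2.20 in raloxifene. Its difference of -1.11 ± 0.25 did not pass without array 3 (adjusted p = 0.0895) and was -1.69 with all arrays (adjusted p = 0.0323). Mmp15, a membrane-bound metalloproteinase, read 3.33, 3.71, 3.92 and 3.47 in vehicle and 1.61, 2.40 and 2.90 in raloxifene (-1.60 ± 0.29, adjusted p = 0.0607). Vcan, the large proteoglycan versican, had the largest difference of the named agreeing probes, -3.96, and was picked out after its values were seen. It read 2.41, 2.93, 1.75 and 1.95 in vehicle and -1.85, -1.54 and 1.01 in raloxifene, and did not pass (adjusted p = 0.145). The other Vcan probe differed by -0.23.

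Beside the matrix genes stand these values of fibroblast markers. Of 15 tested, none passed without array 3, 10 (66.7%) were lower in both arrays 1 and 2 and 1 (6.67%) was higher. The shares over all genes were 45.2% and 33.1%. The markers' median was -0.34. Sfrp4 is on this list too, and was the member that passed with all arrays. Their summed deposited intensity was 791 to 988 in vehicle and 798, 707 and 904 in raloxifene arrays 1, 2 and 3. None of the fibroblast markers was at 0. Dcn, Lum, Col14a1, Col15a1, Mfap5 and Fbln1 are on both the fibroblast and the matrix list. The lists are thus not separate readings. The part of fibroblast number in the matrix values was not tested.

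Igf1, a growth factor that estrogens regulate in several tissues, read 7.03, 7.40, 7.42 and 7.33 in vehicle and 6.17, 5.94 and 3.07 in raloxifene. Arrays 1 and 2 lay about as far below vehicle as each other, and array 3 lay much further down. Its difference was -1.24 ± 0.34 without array 3 (limma, adjusted p = 0.15) and -2.23 with all arrays (adjusted p = 0.0431). It was the only one of 27 tested estrogen receptor and estrogen-responsive genes that passed in either fit. The receptors themselves did not pass: Esr1 differed by -0.20 ± 0.20, Esr2 by 0.18 ± 0.15 and 0.47 ± 0.24 on its 2 probes, and Gper1, the membrane estrogen receptor, by 0.17 ± 0.31. Pgr, the progesterone receptor and a common estrogen target, differed by 0.23 ± 0.18 (adjusted p = 0.614). The list's median was -0.13.

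Among cell cycle genes, 23 of 35 (65.7%) were lower in both arrays 1 and 2 and 8 (22.9%) higher. The shares over all genes were 45.2% and 33.1%. The list's median was -0.25, and -0.13 after position adjustment. No member passed without array 3. Top2a, Mki67 and Cks2, genes of dividing cells, fell with all arrays, beside 159 of all 10191 genes. Top2a, the topoisomerase that untangles chromosomes, stood at -1.45, -0.83 and -1.41 from the vehicle mean in arrays 1, 2 and 3 (limma, adjusted p = 0.0192). Mki67, the proliferation marker, stood at -1.82, -0.72 and -2.27 (adjusted p = 0.027). Cks2, a partner of cyclin-dependent kinases, stood at -1.05, -0.98 and -1.85 (adjusted p = 0.0208).

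No member of the lists for smooth muscle contraction, vasoactive receptors and nitric oxide or prostanoid synthesis passed without array 3 or with all arrays, on the probe that stands for each gene. After position adjustment with all arrays, 3 of 32 vasoactive receptor list members passed as higher, beside 421 of all 24562 probes (1.71%). The 24 contractile genes had a median of 0.13, with 13 higher (54.2%) and 5 lower (20.8%) in both arrays. The shares over all genes were 33.1% and 45.2%. Myh11 differed by 0.94 ± 0.33 on 1 probe and -0.32 ± 0.22 on the brighter one, so its probes did not agree. Acta2 differed by 0.84 ± 0.36 (limma, adjusted p = 0.341). Nos3, the endothelial nitric oxide synthase, read 5.34, 5.03, 5.17 and 4.90 in vehicle and 4.94, 4.69 and 3.74 in raloxifene, a difference of -0.30 ± 0.22 (adjusted p = 0.617). The angiotensin receptor Agtr1a differed by 0.44 ± 0.28, the prostacyclin synthase Ptgis by 0.03 ± 0.21 and the inducible cyclooxygenase Ptgs2 by -0.65 ± 0.39. For Ptgs1, the constitutive cyclooxygenase, the probes gave 0.21 ± 0.24 and -0.07 ± 0.14, and for the adrenergic receptor Adra1d 0.09 ± 0.22 and 0.26 ± 0.16. The median was 0.07 over 32 vasoactive receptor and renin-angiotensin genes and 0.03 over 25 nitric oxide and prostanoid genes. Ednra and Ednrb were not matched, and Adra1a was too dim to be tested.

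Coagulation genes, of interest because SERMs raise the risk of venous clots, had a median of -0.21 over 17 members, and -0.13 after position adjustment. Of the members, 11 (64.7%) were lower in both arrays 1 and 2 and 2 (11.8%) higher, against 45.2% and 33.1% of all genes. No member passed without array 3. With all arrays, 61 higher and 159 lower of all 10191 genes passed, beside which the calls below stand. F13a1, the subunit of the clot-stabilising factor XIII found in macrophages, stood at -0.89, -0.90 and -1.62 and fell with all arrays (limma, adjusted p = 0.0386); its other probe was level with vehicle in array 3, at 0.02. Vwf, the platelet-binding protein of endothelium, stood at -0.49, -0.42 and -1.79 (adjusted p = 0.065). In the interferon list, 31 genes had a median of -0.11, and Psmb8 was the member that passed without array 3. Its neighbour in the immunoproteasome, Psmb9, stood at -0.62, -0.52 and -1.58 and fell with all arrays (adjusted p = 0.0469), as did Tap2. Psmb10 and Tap1, related members of that list, were not lower in the same way. Psmb10 stood at 0.39, -0.04 and 0.28 and Tap1 at -0.01, -0.01 and -2.28, and neither passed in either fit. In the steroid and xenobiotic list of 26 genes the median was 0.12. Hsd11b2, which inactivates glucocorticoids, and Cyp7b1, an oxysterol hydroxylase, fell with all arrays (adjusted p = 0.0366 and 0.0314), with values of -1.32, -0.98 and -0.97, and of -1.30, -0.51 and -1.67. Cyp2e1, an ethanol-oxidising enzyme, agreed on both of its probes, at 2.24 and 1.63, but did not pass (adjusted p = 0.192 and 0.29).

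Over the 30 lists together, 598 genes were tested and 1 passed without array 3 (Psmb8, lower), beside 9 lower and 0 higher of all 10191 genes at 1 probe each. With all arrays 22 list genes passed, 2 higher and 20 lower, beside 61 higher and 159 lower of all genes. Over arrays 1 and 2, list medians were below 0 in 11 of 16 process lists and 13 of 14 cell type lists. The median over all genes was itself -0.06, so a list median below 0 need not lie below that of all genes. Array 3 departed from arrays 1 and 2 in both directions. For oxidative phosphorylation its median was -0.66 against -0.10 and -0.21, for ribosomal proteins -0.56 against -0.19 and -0.35, and for 9 lymphatic and venous endothelium markers 0.47 against -0.13 and -0.15. Pancreatic enzyme genes, markers of a tissue that lies against these arteries, were at a median of -2.28, 0.18 and -2.01 in arrays 1, 2 and 3. Their summed deposited intensity ran from 13.7 to 194 in the vehicle arrays and was 6.59, 44.8 and 10.1 in raloxifene, so the arrays of each group differed widely.

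Ribosomal protein genes were lower in both arrays about as often as matrix genes, 25 of 33 (75.8%) at a median of -0.27, and none passed in either fit. Over arrays 1 and 2 the median was -0.05 for 24 fatty acid synthesis genes, -0.07 for 17 sterol genes, -0.05 for 26 immediate early and heat shock genes and 0.01 for 16 clock genes. It was -0.12 for 45 oxidative phosphorylation genes and -0.15 for 34 genes of TGF-beta, BMP and IGF signalling. With all arrays Atp5po and Ndufs1, subunits of the ATP synthase and of complex I, fell (limma, adjusted p = 0.0315 and 0.039), as did Bmp7, a bone morphogenetic protein (adjusted p = 0.0469). Among cell types the median was -0.25 for endothelial cells, -0.03 for adipocytes, -0.12 for mast cells, -0.17 for neurons and Schwann cells, -0.10 for mesothelium, -0.28 for gut epithelium, -0.14 for enteric muscle and for lymphatic endothelium, 0.05 for erythroid cells and -0.01 for skeletal muscle. Stmn2 and Gpm6a, neuronal and mesothelial markers, fell with all arrays (adjusted p = 0.0387 and 0.0388).

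**Figure D4:**
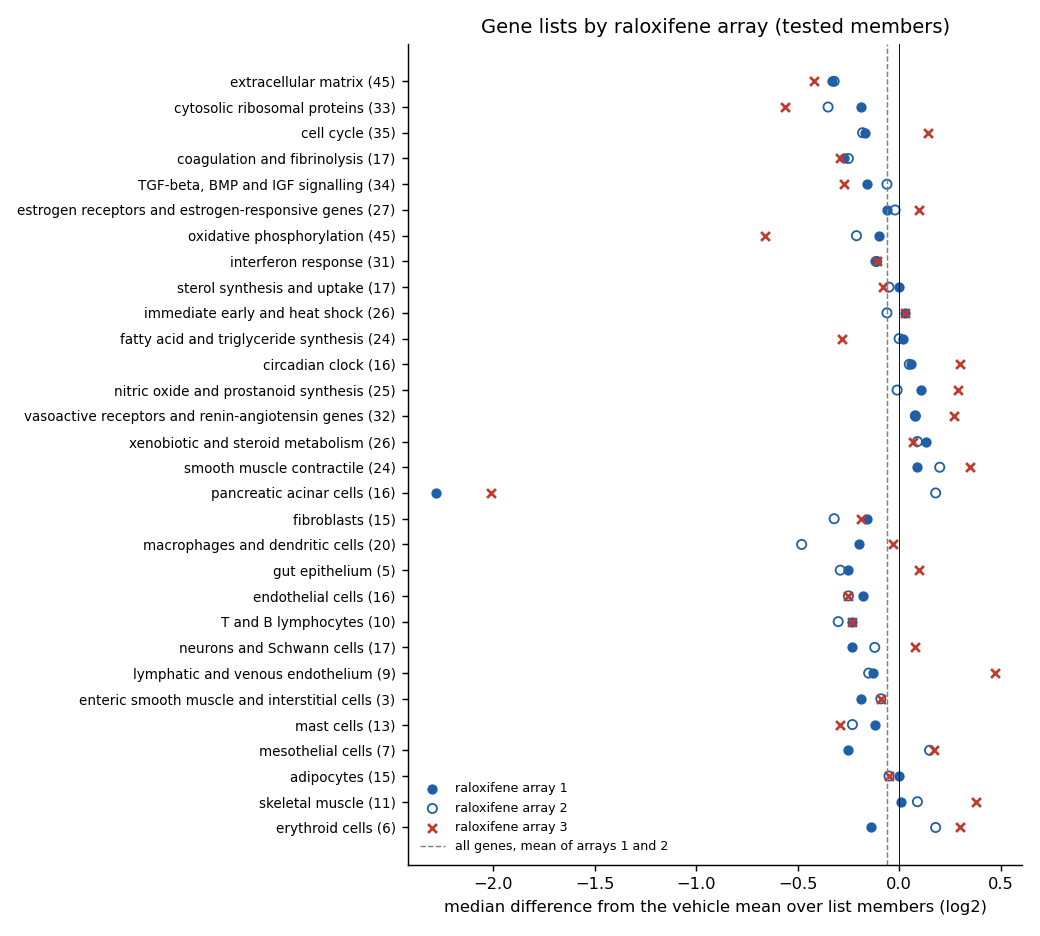
Median difference from the vehicle mean (x axis, log2) over the tested members of each of 30 gene lists (y axis, number of members in brackets) for raloxifene array 1 (filled circle), array 2 (open circle) and array 3 (cross); the dashed line is the all-gene median of arrays 1 and 2, -0.06. Extracellular matrix genes lie left of that line in all 3 arrays, and pancreatic acinar genes lie near -2 in arrays 1 and 3 only.

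A far larger set of probes was carried by array 3 alone, with array 3 at least 1 from the vehicle mean and outside its range while arrays 1 and 2 were each within 0.5. These were 1806 probes on the higher side (7.35%) and 3605 on the lower (14.7%), of which 721 and 2283 carry a symbol. The 8 lowest were Rrbp1, Kdm5c, Nup107, Ift20, Hprt1, Sik1, Rab31 and Rnase4, with array 3 between -6.55 and -4.86 and array 1 between -0.33 and 0.06. Kdm5c and Nup107 both read -3.43 in array 3, the value that an intensity at or below 0 takes there. The size of their differences thus depends on the offset. For Rrbp1, a ribosome-binding protein of the endoplasmic reticulum, arrays 1, 2 and 3 stood at -0.28, -0.38 and -6.55 from the vehicle mean. The 8 highest were Sema3c, Upk1b, Septin2, Armcx1, Usp25, Sun1, Lrrc49 and Adam9, with array 3 between 1.77 and 1.95. None of these 16 passed with all arrays (limma, adjusted p values from 0.0812 to 0.486). Position adjustment left the 8 lowest where they were, between -6.59 and -4.99, and brought the 8 highest to between 0.96 and 1.58.

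Genes with several probes allow array 3 to be read more than once. Over the symbols of probes carried by array 3 alone on the lower side, 1129 of 2024 other probes of the same genes (55.8%) were also below vehicle in array 3. On the higher side 225 of 442 (50.9%) were above. The 2024 were counted from 852 probes and the 442 from 309, so genes with many probes weigh more. Over all 10191 genes at 1 probe each, the median difference of array 3 from vehicle was -0.07. For the agreeing probes the like counts, from arrays 1 and 2, were 20 of 29 (69%) on the higher and 6 of 10 (60%) on the lower side. Counting only other probes at least 0.5 from vehicle on the same side, the shares were 17.2% and 30% for the agreeing probes and 35.1% and 42.6% for those carried by array 3 alone, higher and lower side in turn. At least 0.5 away on the opposite side were 1 of 29 and 1 of 10 for the agreeing probes. For array 3 alone these were 159 of 442 and 575 of 2024, beside 155 and 863 on the same side. The median of the other probes, signed to the agreeing side, was 0.24 for agreeing higher probes, against 1.19 for those probes themselves, and 0.21 against 1.30 on the lower side. Hprt1, the purine salvage enzyme often used as a reference gene, has 25 tested probes, all under 1 accession, and was picked out after its values were seen. In array 3 they ran from -5.17 to 1.44, with 15 at -1 or below and 1 at 1 or above, whereas in array 2 they ran from -0.23 to 0.50 and in array 1 from -1.38 to 0.73. Pgk1, a glycolytic kinase with 25 probes, ran from -2.81 to 1.33 in array 3 and from -0.31 to 0.37 in array 2. Sdha, a subunit of mitochondrial complex II with 16 probes, ran from -4.19 to 1.18 in array 3 and from -1.09 to 0.87 in array 1. For each of these genes the probes spread more widely in array 3 than in arrays 1 and 2, and none passed in either fit.

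With all 3 raloxifene arrays, 502 of 24562 probes (2.04%) passed, 178 higher (0.725%) and 324 lower (1.32%), and 289 of them carry a symbol (99 higher, 190 lower). Of the 502, 12 had also passed without array 3, 9 of them named. In 370 (73.7%) arrays 1 and 2 were each at least 0.5 from the vehicle mean on the called side, and in 237 (47.2%) array 3 differed by at least 2 times the mean of arrays 1 and 2. Groups that did not overlap numbered 1519 probes on the higher side (6.18%) and 2656 on the lower (10.8%). Among called probes of that kind the highest were Rassf3 (1.99), Arsk (1.62), Baz2b (1.57), Wdr44 (1.55), Zfp667 (1.49), Gorab (1.49) and Acadsb (1.43). The lowest were Armc5 (-2.36), Igf1 (-2.23), Tcf4 (-1.93), Cdca4 (-1.80), Nfat5 (-1.72), Lmf2 (-1.72), Sfrp4 (-1.69) and Brd3 (-1.68). Tcf4, a helix-loop-helix transcription factor, read 4.58, 4.73, 4.18 and 4.14 in vehicle and 3.43, 3.45 and 0.54 in raloxifene. Arrays 1 and 2 were thus lower as well, and its difference without array 3 was -0.97 ± 0.19 (limma, adjusted p = 0.0613). Brd3, a bromodomain protein, read 2.99, 3.03, 2.30 and 1.97 in vehicle and 1.57, 1.60 and -0.50 in raloxifene (-1.68, adjusted p = 0.049). Nfat5, a transcription factor of osmotic stress, was called on 1 of 5 tested probes, whose arrays 1, 2 and 3 stood at -0.81, -0.98 and -3.38. The other 4 Nfat5 probes lay between -0.27 and 0.17 without array 3. For Gorab, a Golgi protein, the second probe went the other way in array 3, at -2.89 against 2.51 for the named probe.

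The probes called with all arrays were unevenly spread over the blocks: 97 of the 178 higher calls (54.5%) and 2 of the 324 lower calls (0.617%) lay in the first 50 blocks, which hold 14.5% of tested probes. After position adjustment 806 probes passed (3.28%), 421 higher and 385 lower, with 52 (12.4%) and 48 (12.5%) of these in the first 50 blocks, and 282 were among the original 502. The count also depended on single arrays. It was 2326 without raloxifene array 1, 3774 without raloxifene array 2, 14 without array 3, 5 without vehicle array 1, 9 without vehicle array 2, 23 without vehicle array 3 and 1360 without vehicle array 4. Quantile normalisation gave 271 higher and 207 lower calls.

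Raloxifene, a benzothiophene, was compared with tamoxifen, a triphenylethylene, at the same dose and time, a single pair of compounds with p-values adjusted over all tested probes. Without raloxifene array 3, 0 of 24562 probes (0%) passed (limma) and 842 (3.43%) had an unadjusted p under 0.05. With all arrays 1 passed (0.00407%): the Armc5 probe described above, at -2.07 ± 0.30 (adjusted p = 0.0391). Tamoxifen arrays read 3.07, 2.71, 3.11 and 2.82 for Armc5, all above the 3 raloxifene arrays at 0.87, 1.46 and 0.26 and overlapping vehicle. The Armc5 difference without array 3 was -1.77, with a 95% interval from -2.40 to -1.14 (adjusted p = 0.444). The call with all arrays was also lost on leaving out raloxifene array 1 or any 1 of the tamoxifen arrays (0 probes passed each time), and 224 probes passed without raloxifene array 2. The other Armc5 probe differed from tamoxifen by -0.77 with all arrays (limma, adjusted p = 0.348) and by -0.45 without raloxifene array 3.

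**Figure D5:**
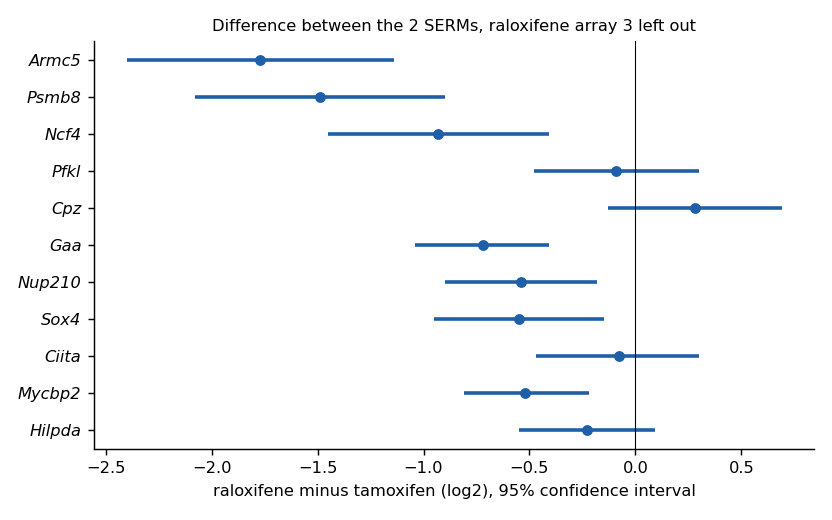
Raloxifene minus tamoxifen (x axis, log2) with its 95% confidence interval for the 11 genes of the comparison with vehicle (y axis), raloxifene array 3 left out. The intervals of 7 genes lie below 0, and those of Pfkl, Cpz, Ciita and Hilpda include 0; none passed after adjustment over all probes.

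For the 11 genes named above, which were chosen by their values in the raloxifene arrays, the interval of raloxifene minus tamoxifen lay below 0 for 7 and included 0 for 4, and no adjusted p was under 0.444. Psmb8 read 4.48, 4.04, 4.51 and 4.12 in tamoxifen, above raloxifene arrays 1 and 2, with a difference of -1.49 (-2.08 to -0.90). Gaa read 3.54, 3.47, 3.71 and 3.64 in tamoxifen, between raloxifene and vehicle, with a difference of -0.72 (-1.04 to -0.41). Cpz read 2.06, 1.85, 2.46 and 2.36 in tamoxifen, with a difference of 0.28 (-0.13 to 0.69), and Pfkl read 3.79, 4.12, 3.76 and 3.48, with a difference of -0.09 (-0.48 to 0.30). Ciita and Hilpda differed by -0.08 (-0.47 to 0.30) and -0.23 (-0.55 to 0.09). An adjusted p that misses the threshold does not show that the compounds act alike.

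Both SERMs were set against the same 4 vehicle arrays, so their values are given only side by side. In tamoxifen against vehicle (0.676% of probes passed in the fit without raloxifene array 3), 5 of the 11 genes passed: Cpz at -1.48, Pfkl at -1.15, Ciita at -0.99, Hilpda at -0.66 and Nup210 at -0.64. Raloxifene gave -1.20, -1.24, -1.07, -0.89 and -1.17 for the same genes. Armc5, Psmb8 and Gaa stood at -0.29, -0.28 and -0.48 in tamoxifen and did not pass there. Col1a1 stood at -1.64 and Igf1 at -1.38 in tamoxifen, both of which passed, beside -1.37 and -1.24 in raloxifene arrays 1 and 2. Of the 9 genes given for the higher side, 2 passed in tamoxifen. These were Arsk at 1.13 and Drg1 at 0.76 (limma, adjusted p = 0.0102 and 0.0369), beside 1.28 and 1.06 in raloxifene arrays 1 and 2. For 8 of the 9, the interval of raloxifene minus tamoxifen included 0.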

How the data were processed

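RNA of 20 mesenteric arteries was measured on 1-colour CodeLink rat whole genome arrays. The deposited intensity values are linear, include values at or below 0 and have array medians near 1, which leaves depth per probe unknown. Bacterial control RNAs were spiked in for normalisation and the slides were read with GenePix Pro, CodeLink Expression Analysis and Acuity, per the series' design text, which does not say which program gave these values. The number of arrays limits the precision.

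Values at or below 0 were set to 0, 0.103 (0.1 times the overall median) was added, and log2 values were centred on each array's median. This offset understates changes of dim genes. The test left out 40 probes without values on at least 2 arrays of any group, then the dimmest 30%. A group-means model was fitted with limma 3.58.1 (R 4.3.3, variance trend) over all 20 arrays, or 19 without raloxifene array 3, with Benjamini-Hochberg adjustment over 24562 probes. A probe passed at an adjusted p under 0.05; only probes that passed are said to have risen or fallen. Probe symbols come from the platform's annotation (165 probes with several symbols and 18099 with none were not named).

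The members, the 30 lists (599 of 830 genes matched) and the named genes were chosen with earlier results of these data known. Named were up to 10 agreeing probes in each direction that passed without array 3, by fitted change, filled to 10 from the other agreeing probes by p; up to 8 in each direction among non-overlapping probes that passed with all arrays; the 8 highest and 8 lowest carried by array 3; up to 3 list members by p and 3 by array 3; and 18 fixed genes. Genes outside that rule (Ncf4, Nup210, Sox4, Ciita, Mycbp2 and Hilpda, which passed without array 3, list members that passed with all arrays, and those marked in the text) were named after their values were seen. Of the genes the rule gives, 1 is not reported here. Lists use the brightest probe of a gene. Replicates are single rats per the labels. In simulated data for arrays 1 and 2 against vehicle, 20 of 50 probes changed by 1 and 45 of 50 changed by 2 were recovered, with 5 false calls among 24228. The simulated noise was independent for each probe and array, without the trends along the probe numbers or any difference between array sets. The false calls that such structure may bring in the real data were therefore not measured. Alternatives covered normalisation, centring, offset, filter, trend, weights, samples in the fit, replicate and array-set blocks, leaving out arrays and, added after seeing the data, position adjustment.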

Additional observations from a re-analysis of the deposited data

Results flagged for a closer look

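For Armc5, raloxifene and tamoxifen differed at the same dose by -2.07 ± 0.30 (log2, limma, adjusted p = 0.0391, all arrays). All 3 raloxifene arrays lay below all 4 tamoxifen arrays. Without raloxifene array 3 the difference was -1.77 and did not pass (limma, adjusted p = 0.444). The other Armc5 probe differed by -0.77 with all arrays and did not pass (limma, adjusted p = 0.348). For Hsd17b2, the lowest vehicle array (array 1, at -2.40) lay far from the others, which ran from -1.65 to -1.53. This was 1 of 36 genes whose 4 vehicle arrays were checked in this way, and chance alone marks about 1 group in 20.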

How the results depend on the processing

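For the named genes followed through the alternatives, 847 values were computed and 0 changed sign. These genes were chosen by large or non-overlapping differences, or by passing, on the same arrays. The count of sign changes was thus largely fixed by that choice. Of the 847 values, 590 stayed on their side of the threshold, 214 lost a call and 43 gained one. With all arrays, the count of 502 became 111 without the filter, 806 position-adjusted, 4390 with array weights, 0 with only the compared groups (3138 at an unadjusted p under 0.05, limma), 5 with the array set as a block and 44 with both; leaving out an array gave 5 to 3774. Without array 3, the count of 14 became 39 with the lowest 50% left out, 23 position-adjusted, 2619 with array weights, 0 with only the compared groups (2549 unadjusted, limma) and 5 with the array set as a block; leaving out a further array gave 1 to 236. The count of 1 for raloxifene minus tamoxifen became 1400 with array weights, 0 with only the compared groups (1205 unadjusted), 0 with the set as a block (3164 unadjusted) and 0 without array 3 after position adjustment (1319 unadjusted, limma); leaving out an array gave 0 to 224. Agreeing higher probes numbered 59, and 6 or 223 at a size of 1.5 or 0.75, 24 or 107 at an offset of 0.3 or 0.03 times the median, and 36 with the lowest 50% left out. Agreeing lower probes numbered 51, and 8 or 174 by size, 33 at the larger offset and 31 position-adjusted. Array 3 alone gave 1806 higher probes, and 204 or 3521 by size, 3403 unfiltered, 1187 with the lowest 50% left out and 1180 position-adjusted; its 3605 lower probes became 2179 at 1.5. The causes of these shifts were not tested.

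Same-numbered raloxifene and vehicle arrays did not deviate together (r = -0.08, -0.06 and 0.02). This gives no sign that the numbers pair the rats, but cannot exclude it, as deviations of whole arrays enter these values. A replicate block gave 506 calls with all arrays, 0 without array 3 (3569 unadjusted, limma) and 1 against tamoxifen.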
